A study of Ziziphus nummularia with 2 samples.

Results

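Ziziphus nummularia, a spiny wild relative of the jujube, grows as a shrub in arid country. Whole seedlings of genotype CIAHZN-J were sequenced in 2 RNA libraries, 1 from a drought sample at -0.3 MPa and 1 from a control sample at 0 MPa. The sources used here do not say how the water potential was set and held, or how many seedlings entered each sample. A subset of abundant contigs, assembled stretches of transcript, had nearly equal values in the drought and control libraries. A contig belonged to it when it had at least 100 FPKM in both libraries and its log2 ratio, log2((drought FPKM + 1)/(control FPKM + 1)), lay between -0.5 and 0.5. FPKM is the number of reads per 1000 bases of contig, scaled by the library's read total, and the bound corresponds to a 1.41-fold difference. Of 98230 contigs, 481 reached 100 FPKM in both libraries, and 218 of these lay within the bound. Of the other 263, 119 were higher and 144 lower in drought.

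These 218 contigs were selected on the FPKM values of the 2 libraries, so their levels, ratios and ranks are given as a description, with no test. With 1 library per condition there is no spread between replicates, and a value that was nearly equal in this pair of libraries is not thereby shown to be steady across seedlings. The files pair the contig numbers with no gene name and no sequence, so no gene, protein or pathway is named and no sequence is shown. The number itself follows the length of the contig (Spearman correlation 1.00 across 97409 contigs), and is used here only to tell contigs apart. For the same reason the label of the whole-seedling samples could not be checked against marker genes.

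As background, the most abundant messenger RNAs of a green seedling usually encode the photosynthetic apparatus and the machinery of protein synthesis, and a small number of transcripts can take a large part of a library. A more negative water potential makes water harder for a plant to take up, and plants short of water close their stomata and change the transcription of many genes. Transcripts whose level differs little between conditions are used in plant physiology as internal references, for which they are chosen over replicated samples and by sequence. An assembled contig is often only a piece of a transcript, and several contigs can come from 1 gene.

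The drought library held 7406331 reads on contigs and the control library 12509371. The 218 contigs rested on 371 to 22335 reads each in the drought library (median 1028) and on 565 to 34168 reads each in the control (median 1682). At these depths the 95% counting interval of a contig's drought-to-control ratio (exact, Clopper-Pearson) spanned 0.05 to 0.38 on the log2 scale, with a median span of 0.22. The interval lay wholly within the bound for 175 of the 218 contigs and reached past it for 43. Among the 263 other contigs, the interval of 37 reached into the bound. Nearly equal did not mean equal within counting error. For 166 of the 218 the interval left out a ratio of 1, 91 of them higher and 75 lower in drought. For the other 52 it held 1. These counts depend on read depth and on the scaling of the libraries. No matching share over other contigs was computed, so they show nothing particular to these 218. Reads carry no molecular identifiers, so these intervals cover counting error only. They take each counted read as an independent draw. Whether the deposited counts are of reads or read pairs is not known, and if both reads of a pair were counted the intervals are too narrow.

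A share of 45.3% of the 481 abundant contigs lay within the bound. Among all 40274 contigs with at least 1 FPKM in both libraries the share was 49.9%, and among the 59206 that reached 1 FPKM in one library or both it was 39.5%. Only the 49.9% rests on the matching requirement of both libraries, since reaching a minimum in one library alone favours large ratios. The share among abundant contigs was near this matching value, so their number within the bound is no result about them. The shares past the bound were 24.7% higher and 29.9% lower in drought among the abundant contigs, against 23% higher and 27% lower among contigs with at least 1 FPKM in both libraries. The minimum of 100 FPKM in both libraries itself favours small ratios, because a contig just above 100 FPKM in one library enters only if the other value is not below it. Any contig with a geometric mean of its 2 values under 119 FPKM had to lie within the bound, and 30 of the 218 did so by this construction. Above that level 188 of 451 contigs, or 41.7%, were within the bound.

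**Figure D1:**
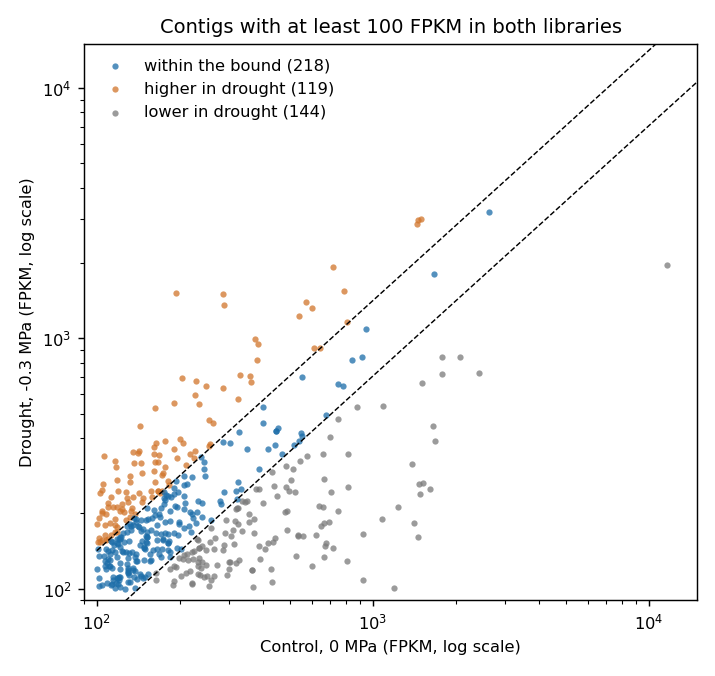
FPKM in the drought library (vertical, log scale) against FPKM in the control library (horizontal, log scale) for the 481 contigs with at least 100 FPKM in both, 1 point per contig, with dashed lines at log2 ratios of -0.5 and 0.5. The 218 contigs between the lines crowd toward the low end, and 26 of them have a geometric mean of 300 FPKM or more.

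The contigs within the bound ranged from 100.1 to 3203 FPKM in the drought library, with a median of 161 and quartiles at 133 and 218. In the control library they ranged from 100.2 to 2631 FPKM, with a median of 153 and quartiles at 128 and 206. The other 263 abundant contigs were higher in level, with a median of 212 FPKM in drought and 254 FPKM in the control. Within the bound, 113 contigs were above and 105 below a log2 ratio of 0. The median log2 ratio was 0.02, against -0.05 over all contigs with at least 1 FPKM in both libraries. The quartiles of the log2 ratio were -0.19 and 0.30. A log2 ratio within 0.25 of 0 was found for 109 of the 218 contigs and one within 0.1 for 37.

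The 2 contigs with the highest mean FPKM among those above a log2 ratio of 0 were 408207 and 558282. Contig 408207, of 161 bases, had 3203 FPKM in drought (9638 reads) and 2631 FPKM in the control (13099 reads). It was the highest of all contigs in the drought library and the second in the control, 1.22-fold higher in drought (95% counting interval 1.19 to 1.25). Contig 558282, of 663 bases, had 1802 FPKM in drought (22335 reads) and 1667 FPKM in the control (34168 reads), ranks 7 and 8 of all contigs. Its ratio was 1.08 (1.06 to 1.10). Both thus held their place at the top of each library while lying slightly higher in drought, with counting intervals above 1.

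The 2 with the highest mean FPKM among those below a log2 ratio of 0 were 511674 and 493976. Contig 511674, of 328 bases, had 841 FPKM in drought (5155 reads) and 914 FPKM in the control (9269 reads), a ratio of 0.920 (0.889 to 0.952). Contig 493976, of 279 bases, had 823 FPKM in drought (4292 reads) and 839 FPKM in the control (7237 reads). Its ratio of 0.981 had an interval of 0.945 to 1.02, so that no difference was detectable at this depth. Between these and the pair above them stood a contig of 209 bases with 1086 FPKM in drought and 945 FPKM in the control.

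The next members in order of mean level lay on both sides of a drought-to-control ratio of 1. A pair of contigs of the same length, 524 bases, had 644 and 660 FPKM in drought and 777 and 750 FPKM in the control, both lower in drought at ratios of 0.829 and 0.881. A contig of 594 bases had 698 FPKM in drought and 555 FPKM in the control, a ratio of 1.26. One of 1510 bases had 495 FPKM in drought and 675 FPKM in the control, a ratio of 0.733 that is close to the bound. The contig nearest to equality, of 281 bases, lay lower down, with 152.1 FPKM in drought (799 reads) and 152.0 FPKM in the control (1321 reads), and its counting interval still allowed ratios of 0.915 to 1.09.

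At the upper edge of the bound, the last contig inside had 143 FPKM in drought and 101 FPKM in the control (206 bases, log2 ratio 0.498). The first outside had 168 FPKM in drought and 118 FPKM in the control (365 bases, 0.501). At the lower edge, the last inside had 229 FPKM in drought and 322 FPKM in the control (258 bases, -0.49), and the first outside had 115 FPKM in drought and 164 FPKM in the control (214 bases, -0.504). Counting intervals of all 4 crossed the bound, which therefore marks no break between kinds of contig. At the minimum level, a contig of 210 bases was inside with 100.1 FPKM in drought and 126 FPKM in the control, and one of 1430 bases was outside with 132 FPKM in drought and 99.4 FPKM in the control. A further 72 contigs lay within the bound but reached 100 FPKM in one library only, 42 of them in drought and 30 in the control.

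Together the 218 contigs made up 6.49% of all FPKM in the drought library and 6.22% of all FPKM in the control. Counted in reads, which longer contigs collect more of, they took 5.36% of the drought reads (Wilson 95% interval 5.34% to 5.38%). Of the control reads they took 5.18% (5.17% to 5.19%). They make up 0.222% of all contigs. Their summed FPKM was 48588 in drought and 47582 in the control, a ratio of 1.02. The bound alone holds this ratio between about 0.71 and 1.41, so some balance of the sum is set by the rule. Scaling the libraries to an equal sum over contigs would by itself raise every drought value by a log2 of 0.03.

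The sets on either side of the bound were separated by their ratio, so that the share of one had to be larger and that of the other smaller in drought. The 119 higher contigs held 7.69% of the drought FPKM and 3.63% of the control FPKM, and the 144 lower contigs 4.16% in drought and 11.7% in the control. Joined, these 263 contigs held 11.8% of the drought FPKM and 15.3% of the control FPKM. Without the contig that was highest in the control library these shares were 11.6% of the drought FPKM and 13.8% of the control FPKM. All 481 abundant contigs thus took 18.3% of the drought FPKM and 21.5% of the control FPKM, and the part within the bound was larger in drought while the part outside it was smaller. In reads the 263 contigs differed less, with 12.6% of the drought reads and 13.1% of the control reads.

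**Figure D2:**
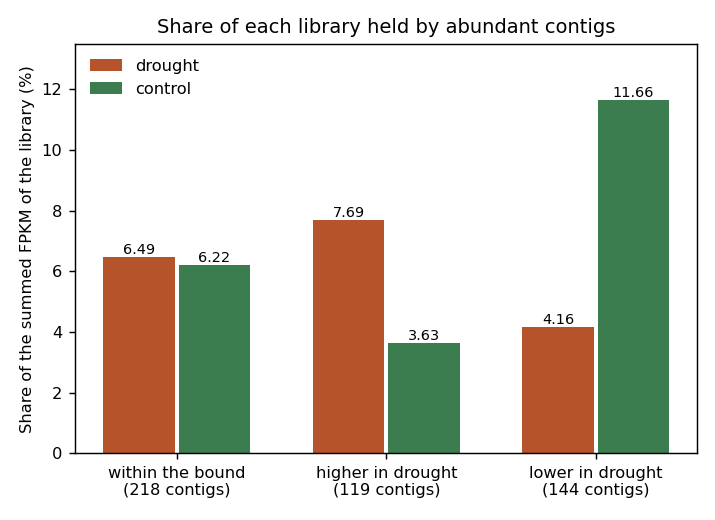
Share of the summed FPKM of each library (vertical axis, percent) held by abundant contigs within the bound, higher in drought and lower in drought, with 1 bar for the drought library and 1 for the control library in each set. The bars within the bound stand at 6.49% in drought and 6.22% in the control, while the lower set holds 4.16% in drought and 11.66% in the control.

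The level within the set was uneven. The 2 highest contigs carried 10.3% of its drought FPKM and 9.03% of its control FPKM, the 10 highest 22.0% in drought and 21.6% in the control, and the 50 highest 47.5% in drought and 48.3% in the control. Without the 2 highest the rest held 5.82% of the drought FPKM and 5.66% of the control FPKM. The excess in drought was 0.263 percentage points with them and 0.157 without them, so these 2 contigs carried part of it. Every share also rests on the sum over all contigs, 748944 FPKM in drought and 764417 FPKM in the control. The smaller drought sum by itself raises each drought share. The 26 contigs with a geometric mean of at least 300 FPKM held 35.1% of the set's drought FPKM and 35.8% of its control FPKM. Of these 26, 10 were above and 16 below a log2 ratio of 0. Of the 192 contigs between 100 and 300 FPKM, 103 were above and 89 below. Both splits lie within the bound and describe these libraries only.

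The share within the bound differed with level. By geometric mean it was 78.4% of 116 contigs from 100 to 150 FPKM and 45.7% of 138 contigs from 150 to 200 FPKM. It was 33.6% of 113 from 200 to 300 FPKM and 25.4% of 67 from 300 to 500 FPKM. The minimum in both libraries keeps large ratios out, most in the lowest class and less in each class above it. The fall across these classes is therefore set in part by the rule. From 500 to 1000 FPKM the share was 17.6%, or 6 of 34 contigs, and above that 3 of 13. The set is therefore made up mainly of the less abundant of these contigs: 91 of the 218 lay between 100 and 150 FPKM and 63 between 150 and 200 FPKM. Of the other 263, 25 and 75 lay in these ranges.

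A minimum that does not act on each library separately was used to see the same relation without this edge. With the geometric mean at 100 FPKM or more, a setting chosen after seeing the data, 251 of 792 contigs or 31.7% lay within the bound (95% Wilson interval 28.5% to 35.0%). The share was 45.7% at a minimum of 1 FPKM, 44.5% at 10 FPKM, 35.1% at 50 FPKM, 27.4% at 200 FPKM and 19.1% at 500 FPKM. With the minimum met in both libraries it was 49.9% at 1 FPKM, 52.0% at 10 FPKM, 46.3% at 50 FPKM, 36.6% at 200 FPKM and 29.6% at 500 FPKM. Under either form the share was lower at 200 and 500 FPKM than at 1 or 10 FPKM. The pseudocount of 1 FPKM draws the log2 ratios of low contigs toward 0, and its part in this order was not tested. The sets at rising minimums are nested, contigs of 1 gene could not be grouped, and the intervals treat contigs as independent draws.

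**Figure D3:**
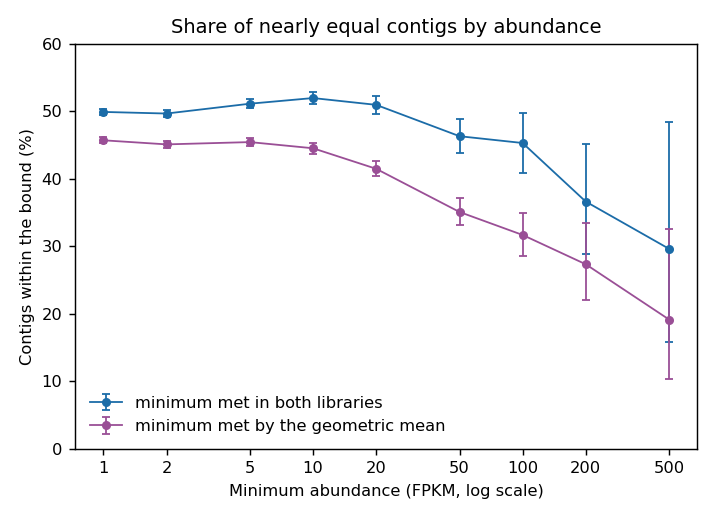
Share of contigs with an absolute log2 ratio under 0.5 (vertical axis, percent) against the minimum abundance (horizontal axis, FPKM, log scale), with the minimum met in both libraries or by the geometric mean of the 2, and bars for 95% Wilson intervals. With the minimum met in both libraries the share is 49.9% at 1 FPKM and 29.6% at 500 FPKM, and by the geometric mean it is 45.7% at 1 FPKM and 19.1% at 500 FPKM.

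Rank among the 481 abundant contigs was compared next, with rank 1 the highest FPKM in a library. The 218 contigs within the bound moved by a median of 53.5 places between the libraries, and the other 263 by a median of 165 places. A move of at most 25 places was found for 59 of the 218 (27.1%) and 16 of the 263 (6.08%), and one of at most 100 places for 179 (82.1%) and 61 (23.2%). The farthest moves were 135 places within the bound and 457 places outside it, and 98 of the 263 moved by over 200 places. When each library's ranking was divided into 4 equal classes, 127 of the 218 (58.3%) stayed in the same class and none moved by more than 1 class, while 43 of the 263 (16.3%) stayed and 118 moved by more than 1 class. A bound on the ratio limits the change of rank, so these numbers show its extent and support nothing further.

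A small ratio still allowed a large change of place where many contigs have similar levels. Within the bound, the median move was 55 places from 100 to 150 FPKM, 65 from 150 to 200 FPKM, 58 from 200 to 300 FPKM and 29 from 300 to 500 FPKM. The 9 contigs above 500 FPKM moved less, by a median of 4 places for the 6 up to 1000 FPKM and of 1 place for the 3 above it. Outside the bound the median move was 173 places from 100 to 150 FPKM, 68 from 500 to 1000 FPKM and 17.5 above that. Smaller moves at high levels were thus not particular to contigs within the bound. The greatest gain within the bound was that of a contig of 172 bases with 192 FPKM in drought and 136 FPKM in the control, rank 222 against rank 357. The greatest loss within it was that of a contig of 2589 bases with 111 FPKM in drought and 149 FPKM in the control, rank 450 against rank 323. Across the 218 contigs the Spearman correlation of the drought with the control values was 0.819. It was 0.873 across the 119 higher contigs and 0.681 across the 144 lower ones, and 0.120 when these were pooled. The rule sets much of each value. Each set holds log2 ratios of a limited range or one sign, and the pooled set lacks the band between. All 4 are thus descriptions of 2 libraries.

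**Figure D4:**
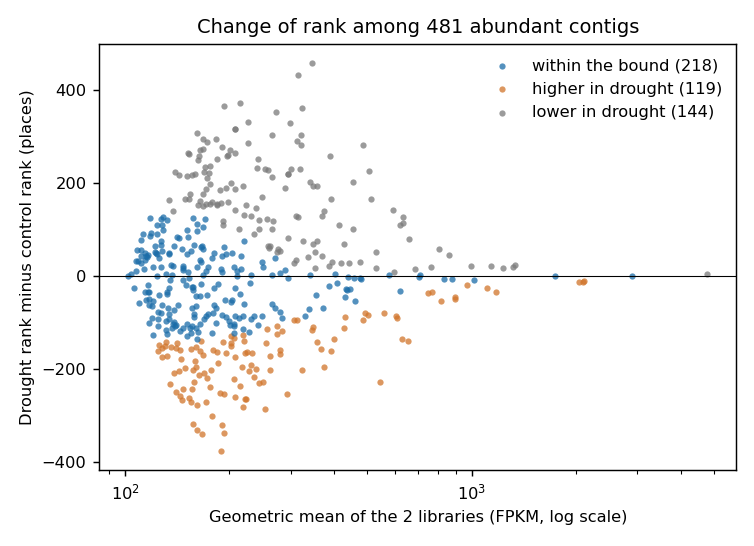
Drought rank minus control rank among the 481 abundant contigs (vertical axis, places, negative for a higher place in drought) against the geometric mean of the 2 libraries (horizontal axis, FPKM, log scale), 1 point per contig. Points within the bound reach 135 places from 0 at low levels and close in on 0 above 500 FPKM. Points outside it also lie nearer to 0 at the highest levels.

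Contigs within the bound were also counted among the highest of each library. Choosing by the level in one library itself favours large ratios, so these counts are not comparable with the 39.5% and 49.9% given above. Of the 10 highest contigs in the drought library 2 were within it, and likewise 2 of the 10 highest in the control, contigs 408207 and 558282 in both cases. The 2 libraries had 3 of their 10 highest contigs in common, and 2 of these were within the bound. Of the 100 highest, 22 in the drought library and 15 of those in the control were within the bound. The 2 libraries shared 37 of their 100 highest contigs, of which 14 were within the bound, 11 higher and 12 lower in drought.

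Length was the one property of the contigs that the choice did not use directly, although FPKM is a value per length. Contigs within the bound had a median length of 314.5 bases (quartiles 215 and 521) and the other 263 a median of 333 bases (226.5 and 526). The higher contigs had a median of 342 bases and the lower ones 326.5 bases. These ranges overlapped almost wholly. Mean lengths were 446 ± 398 bases within the bound and 433 ± 347 bases outside it (SD over 218 and 263 contigs). The order of the medians turned under other settings, with 328 bases within and 323 outside a bound of 0.25, 342 within and 336 outside at a minimum of 50 FPKM, and 408 within and 354 outside at a minimum of 1 FPKM. Contigs are not replicates of a condition and may share a gene, so no test was made. Over the 59206 contigs that reached 1 FPKM in either library, the median was 333 bases (quartiles 215 and 637). This set does not match the requirement of both libraries. At 1 FPKM in both libraries, the medians of 408 and 354 bases given above are each longer than 333 bases.

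**Figure D5:**
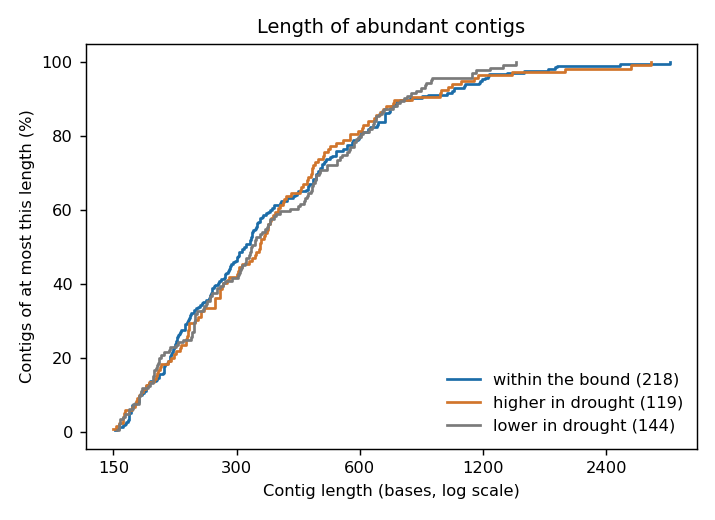
Cumulative share of contigs (vertical axis, percent) by length (horizontal axis, bases, log scale) for the 218 abundant contigs within the bound, the 119 higher and the 144 lower in drought. The 3 lines run close together, with medians of 314.5, 342 and 326.5 bases.

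By length class the share within the bound had no single direction. It was 41.6% of the 89 abundant contigs of 150 to 199 bases, 52.5% of 122 from 200 to 299 bases, 42.0% of 143 from 300 to 499 bases, 41.1% of 95 from 500 to 999 bases and 57.1% of 28 from 1000 to 1999 bases. Of the 4 contigs of 2000 bases or more, 2 were within the bound. Contigs of at least 1000 bases made up 18 of the 218 (8.26%) and 14 of the 263 (5.32%), against 13.3% of those 59206 contigs. Contigs under 200 bases made up 37 of the 218 (17.0%) and 52 of the 263 (19.8%), against 20.1% of the 59206. The 59206 reached their minimum in either library rather than in both, so these 2 shares are no matching background.

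The log2 ratio within the bound, which the rule limits to a narrow range, had a lower median in each longer class up to 1999 bases. The 37 contigs of 150 to 199 bases had a median log2 ratio of 0.15, with 22 above and 15 below 0. From 200 to 299 bases the median was 0.04 (64 contigs), it was -0.0064 from 300 to 499 bases (60 contigs), and it was -0.0143 from 500 to 999 bases (39 contigs). From 1000 to 1999 bases it was -0.07 (16 contigs). Across all 218 the Spearman correlation of length with the ratio was -0.07, and across the 263 others it was 0.03. Length and level were also nearly unrelated, with a Spearman correlation of -0.10 within the bound and 0.03 outside it. All 4 are descriptions across contigs that share 2 libraries.

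The longest contig within the bound, of 3431 bases, had 319 FPKM in drought (20486 reads) and 245 FPKM in the control (25988 reads), a ratio of 1.30 (95% counting interval 1.28 to 1.33). One of 1819 bases had 118 FPKM in drought and 137 FPKM in the control, and one of 1801 bases 123 FPKM in drought and 110 FPKM in the control. One of 1242 bases had 180 FPKM in drought and 165 FPKM in the control. The 10 longest took 18.8% of the set's reads in each library. At the short end, a contig of 151 bases had 279 FPKM in drought (787 reads) and 222 FPKM in the control (1036 reads).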

How the data were processed

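Per the labels' protocols, RNA came from Trizol extraction and the libraries from the TruSeq RNA kit. The submitters' processing notes name Bowtie2 only. Its version and role, and which assembler, counter and strand setting were used, the sources used here do not give. Read counts per contig, whole and not normalized, and FPKM values are the authors' deposited columns. Dividing count by FPKM gave contig lengths to within 0.01 of a base (equal in both libraries for all 81370 contigs with reads in both) and library totals of 18689979 (drought) and 30922631 (control). Reads on contigs were 39.6% (drought) and 40.5% (control) of these, and whether both count the same unit, reads or read pairs, is not known. With 1 library per condition no p-value was computed. The contigs and the comparisons were chosen with earlier results of these data known. Contigs printed by number are the 2 with the highest mean FPKM on each side of a log2 ratio of 0. Others are given without a number. Intervals are 95% intervals, Wilson for shares and exact for ratios. The steps were tested on simulated data. Other settings of the pseudocount, minimum, bound, scaling and reads were tried, 11 in all, and 1 more after seeing the data. Python 3.11.15, numpy 2.4.6, pandas 2.3.3 and scipy 1.17.1 were used.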

Additional observations from a re-analysis of the deposited data

How the results depend on the processing

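The minimum on the geometric mean was chosen after seeing the data. A minimum of 100 reads in both libraries kept all of the 218 contigs, and scaling by the median ratio kept 217 and added 1. With no pseudocount 217 were left, with 6.47% of the drought FPKM. With 5 FPKM added there were 224, with 6.65% of drought FPKM, 6.34% of control FPKM, 5.47% of drought reads and 5.26% of control reads. Scaling drought to the control sum or upper quartile shifted its values by 0.03 (log2), kept 214 of the 218 and added 3. Under either, they held 6.40% of drought FPKM, 6.19% of control FPKM, 5.26% of drought reads and 5.13% of control reads. The remaining settings change the set by construction. A bound of 0.25 gave 109 contigs (22.7% of the 481), with 3.03% of drought FPKM, 2.99% of control FPKM, 2.45% of the reads in each library, and median moves of 31 places within and 128.5 outside the bound, and median lengths of 328 bases within and 323 outside. A bound of 1 gave 362 (75.3%), with 11.7% of drought FPKM, 11.1% of control FPKM, 9.71% of drought reads, 8.96% of control reads, moves of 84.5 places within and 227 outside, and a median of 363 bases outside. A minimum of 50 FPKM gave 669, with 11.0% of drought FPKM, 10.6% of control FPKM, 9.60% of drought reads, 9.26% of control reads, a median of 342 bases within and 336 outside, and moves of 132 places within and 467 outside. A minimum of 200 FPKM gave 48 (36.6% of 131), with 3.01% of drought FPKM, 2.95% of control FPKM, 2.57% of drought reads, 2.52% of control reads, a median of 275.5 bases, and moves of 11.5 places within and 44 outside. A minimum of 1 FPKM gave 20109 (49.9%), with 34.8% of drought FPKM, 33.9% of control FPKM, 39.0% of drought reads, 38.2% of control reads, a median of 408 bases within and 354 outside, and moves of 1833 places within and 7689 outside. The minimum on the geometric mean gave 251 (31.7% of 792), with 6.98% of drought FPKM, 6.67% of control FPKM, 5.81% of drought reads, 5.60% of control reads, and moves of 81 places within and 323 outside. The share of FPKM was higher in drought than in the control under all of these settings, by 0.03 to 0.89 percentage points. All of them draw overlapping sets of contigs from the same 2 libraries, so they are no independent support. The median move within the bound was below that outside under each setting, which the bound on the ratio favours by itself. Depth limits which contigs near the bound are counted: the counting interval of 43 of the 218 reached past it and that of 37 of the others into it. The spread between seedlings was not measured. No paired analysis was possible because there is a single library on each side, which also means that no replicate could be left out.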

Other observations

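In all, 1494 contigs had at least 100 FPKM in at least one library, and 1013 of them in one library only, 569 in drought and 444 in the control. Of the 1494, 290 or 19.4% lay within the bound, the 218 with 100 FPKM in both libraries and 72 others. The matching share over contigs with at least 1 FPKM in at least one library was 39.5%. Reaching a minimum in one library alone favours large ratios, and at the lower minimum the pseudocount draws log2 ratios toward 0. The 2 shares are therefore set side by side only. The 218 were 20.8% of the 1050 contigs at 100 FPKM in drought and 23.6% of the 925 at this level in the control.

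Among the 218, contigs of equal length with both values within 10% of each other formed 3 pairs. The pair of 524 bases had 660 and 644 FPKM in drought and 750 and 777 FPKM in the control. The other pairs were each of 164 bases, with 154 and 158 FPKM in drought against 112 and 120 FPKM in the control, and with 205 and 219 FPKM in drought against 184 and 176 FPKM in the control. Equal lengths are common among short contigs, and sequences that would show whether these pairs are alike were not used here.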
